A study of Mus musculus with 12 samples.

Results

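The replication-dependent histone genes encode the core histones H2A, H2B, H3 and H4 and the linker histone H1 that package newly copied DNA. They were described in mouse ear fibroblasts cultured for 48 h on 4 kinds of alginate gel. Genes were chosen by symbol alone, as those starting with Hist1h to Hist4h, H2ac, H2bc, H3c, H4c or H1f with a digit from 1 to 5, and 70 of the 33246 listed genes matched: 7 of class H1, 20 of H2A, 18 of H2B, 12 of H3 and 13 of H4. The symbol pattern also took in H1f10, a linker histone made outside S phase, and 3 genes named as pseudogenes, and these are counted among the 70. RNA was sequenced from 3 biological replicates of each group: 2-kPa elastic, 20-kPa elastic, 2-kPa viscoelastic and 20-kPa viscoelastic gels. Elastic gels were crosslinked covalently, and viscoelastic gels were slow-relaxing and crosslinked with calcium ions, so crosslinking chemistry and stress relaxation differed together. The study's methods name adult C57BL/6 mice of 1 month, male and female, and Tau-EGFP reporter mice as sources of the fibroblasts, which were used at passage 2, and the labels do not say which animals gave which sample.

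Replication-dependent histone genes lie in clusters, are transcribed in S phase and have, with few exceptions, no introns. Their messages normally end just after a short hairpin, the histone stem-loop, in place of a poly(A) tail: the stem-loop binding protein Slbp holds the hairpin while the U7 particle and the CPSF73 nuclease Cpsf3 cut behind it. When a gene of these clusters is transcribed past this site, or spliced to a distant exon, it can give a polyadenylated message. The libraries were made from RNA bound to poly-T beads, so a message without a poly(A) tail enters them only as carry-over, and the level of a histone gene in them is not its total level.

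In the reference annotation (GENCODE M21, build GRCm38, the same build as mm10), 65 of the 70 genes could be matched by symbol to a gene model. Of these, 53 were on chromosome 13 between chr13:21715763-23934851 and 10 on chromosome 3 between chr3:96219865-96270132. The stem-loop letters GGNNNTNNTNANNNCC with all 6 stem pairs formed (sense strand, G:U pairs allowed) were found in the transcripts of 42 genes, and in 0.933% of 58730 other coding transcripts. The forms below are shown because they differ between members of the classes. The stem is in capitals and the loop in lower case. The first was read in 24 genes, H1f2, H1f3, H2bc8 and H3c15 among them, the second in 6 genes, all of class H4 and including H4c8, the third in H4c9 and H4c14, and the fourth in 5 genes, H2bc3, H2bc12, H3c3, H3c6 and H3c7.
Stem-loop of H1f2, H1f3, H2bc8 and H3c15: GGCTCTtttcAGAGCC
Stem-loop of H4c8: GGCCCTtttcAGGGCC
Stem-loop of H4c9 and H4c14: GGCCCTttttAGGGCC
Stem-loop of H3c3: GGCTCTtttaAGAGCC

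Beyond the stem-loop, the models fell into kinds. In 23 genes the transcript ended within 100 bases of it, with 46 bases in H4c8 and 42 in H2ac7. In 19 genes it ran further, with 840 bases after the stem-loop in H1f2, 2010 in H2ac6 and 4884 in H1f3. In the remaining 23 models the letters were not found, among them that of H2bc4, whose coding exon chr13:23684199-23684621 is spliced to a second exon at chr13:23692176-23692908 (plus strand). Others of the 23 were short, with 381 bases in H2bc13, 393 in H2ac13 and 312 in H4c12. A model can end before the stem-loop, so this kind does not show that a gene lacks one.

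Few of the genes were well counted. Library totals ran from 36626221 to 43612804 counts, and the 70 genes together took 5815 to 7836 of them, or 0.0155% to 0.0189% of a library. At a mean of at least 100 counts over the 12 samples, 8 genes were well counted: H1f2, H2bc4, H2ac25, H1f10, H2bc21, H1f3, H4c9 and H2bc6. H1f2 and H2bc4 alone held 76.1% of the counts. Another 21 genes averaged under 1 count, 7 of which had none in any sample. The count filter, which keeps a gene at about 10 counts in at least 3 samples, left 22 genes for testing and removed 48, none of which exceeded 10 counts in any sample. H2ac8 was the lowest kept, with a mean of 7.58 counts, and H2bc3 the highest removed, with 7.17.

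**Figure D1:**
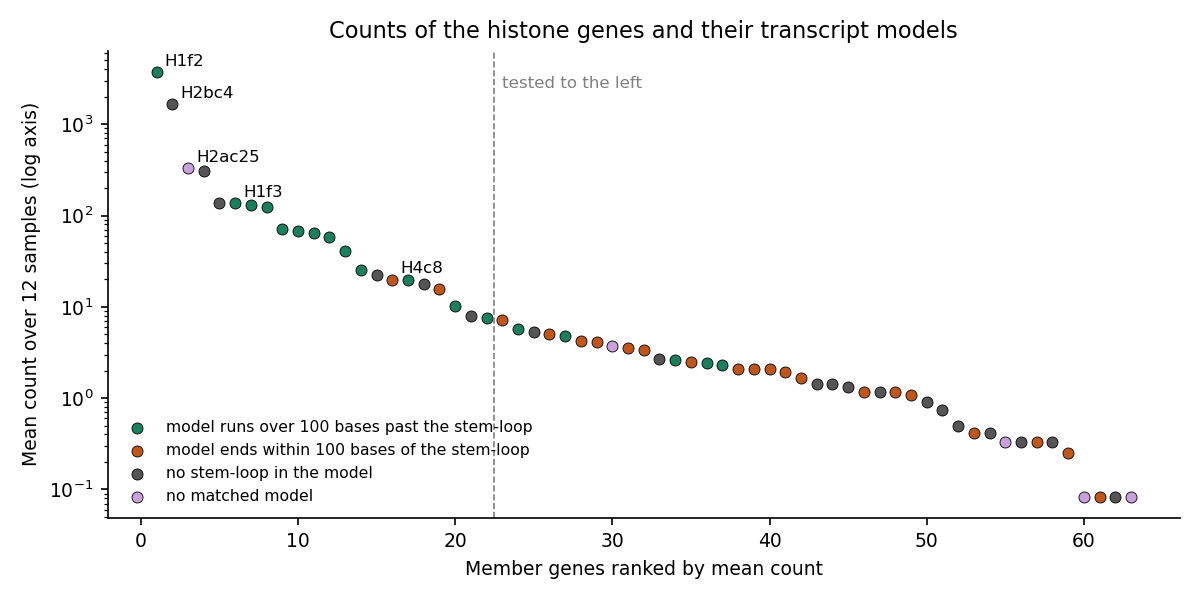
Mean count over the 12 samples (log axis) of the 63 histone genes with any count, ranked, coloured by the end of the transcript model; 7 genes at 0 are not drawn. H1f2 and H2bc4 stand above the others, and the models that end within 100 bases of the stem-loop lie mostly to the right of the dashed line, below the count filter.

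Genes kept by the filter were mostly those with a long model. Of 19 genes whose model ran over 100 bases past the stem-loop, 13 were tested, against 2 of 23 whose model ended within 100 bases (H4c8 and H2ac7), 6 of 23 without the stem-loop letters and 1 of 5 without a matched model. Mean counts had a median of 25.2 in the first kind, 2.08 in the second and 1.17 in the third. Longer models also collect more reads: the median model was 1249 bases in the first kind and 485 in the second. Per kilobase of model, H1f2 was at 57.8 CPM, H2bc4 at 34.7, H1f10 at 6.09 and H4c9 at 4.29, while H1f3, with 7425 exonic bases, was at 0.443. CPM is the count divided by the TMM-scaled library total, in counts per 1e+06.

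The members resemble each other in sequence, which limits their counting. Of all 75-base stretches in a model, fewer than 50% were found in no other gene's transcripts for 31 of the 65 models, and for 5 models no stretch was unique. Those 5, H2ac18, H2ac19, H2bc18, H3c13 and H3c14, had no count in any sample. All their exonic bases also lie in other annotated genes, so their lack of counts does not show that they are silent. Among the 22 tested genes 3 were under that mark: H3c15 (37.4%), H2ac7 (34.5%) and H4c12 (31.9%). How the counting treated reads that map to several genes is not stated. H2bc6 and H1f4 share exonic bases on one strand in the annotation, 25.7% of those of H1f4, so reads from that stretch cannot be told apart.

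The cells carried the defining genes of fibroblasts: all 8 markers (Col1a1, Col1a2, Pdgfra, Pdgfrb, Thy1, Dcn, Vim and Prrx1) averaged from 223 CPM (Thy1) to 6164 CPM (Col1a1). Of 21 markers of other cell types, 16 averaged under 1 CPM. The chondrocyte markers Col2a1 (2396 to 3471 CPM), Acan (854 to 1611 CPM) and Sox9 (367 to 535 CPM) were high in every sample, while Matn1 stayed at or below 0.187 CPM. The sum of the first 3 ranged from 4134 to 5266 CPM on 2-kPa elastic, 3792 to 3883 on 20-kPa elastic, 4002 to 5016 on 2-kPa viscoelastic and 3801 to 5035 on 20-kPa viscoelastic gels, and its part in the results below was not tested.

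The summed level of all 70 genes differed little between gels. It was 164.8 ± 5.996 CPM (SD, n = 3) on 2-kPa elastic, 166.5 ± 14.8 on 20-kPa elastic, 178.9 ± 3.92 on 2-kPa viscoelastic and 174.2 ± 2.45 on 20-kPa viscoelastic gels. At 2 kPa the elastic samples (160 to 171 CPM) lay below the viscoelastic ones (176 to 183), and at 20 kPa the ranges overlapped. Without H1f2 and H2bc4, the remaining 68 genes summed to 39.6 ± 2.24, 41.7 ± 1.85, 42.3 ± 0.693 and 40.0 ± 1.46 CPM in the same order. The 48 genes below the filter showed another order, 2.30 ± 0.249, 2.29 ± 0.297, 1.58 ± 0.138 and 1.85 ± 0.231 CPM, from 61 to 111 counts per sample in all. Their 2-kPa elastic samples (2.09 to 2.57 CPM) lay above the 2-kPa viscoelastic samples (1.46 to 1.73), and at 20 kPa the elastic (2.00 to 2.59) and viscoelastic (1.60 to 2.06) samples overlapped. No p is given for these sums. In bulk RNA, fewer cells in S phase and less RNA per cell cannot be told apart.

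Other RNAs without a poly(A) tail were read in the same libraries. The ribosomal Rn18s, by far the largest of them, was at 8642 ± 1399.7 CPM on 2-kPa elastic, 11243.5 ± 2336 on 20-kPa elastic, 9780.5 ± 4689 on 2-kPa viscoelastic and 9875 ± 4561 on 20-kPa viscoelastic gels, and was called in no comparison. The viscoelastic samples held both its lowest and its highest value at each stiffness. The small RNAs of that kind other than Rn18s summed to 18.8 ± 2.52, 14.7 ± 2.90, 10.9 ± 4.02 and 10.5 ± 1.42 CPM in the same order of groups, nearly all of it Rn7sk, the 7SK RNA. Rn7sk fell on viscoelastic gels at 2 kPa by 0.80 on the log2 scale (SE 0.21, adjusted p = 0.0156), a call lost without replicate 2 of the 2-kPa elastic group (-0.69, adjusted p = 0.0668), and its value at 20 kPa was -0.50 ± 0.21 (adjusted p = 0.0846). The part of carry-over in the sum of the 48 genes was not tested.

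To determine whether viscoelasticity altered single histone genes, the 22 tested genes were compared between gels by edgeR's quasi-likelihood test with Benjamini-Hochberg adjustment over all 14542 tested genes. At 2 kPa, 2 of the 22 were called between viscoelastic and elastic gels, both up (9.09%), against a background of 19.9% of all tested genes, 8.77% up and 11.1% down. At 20 kPa, 7 were called, 4 up and 3 down (31.8%), against 33.5% of all tested genes, 17.4% up and 16.1% down. Between 20 and 2 kPa, 1 was called on elastic gels, up (background 14.0%, with 6.81% up and 7.14% down), and 0 on viscoelastic gels (background 2.28%, with 1.58% up and 0.695% down), where 3 had an unadjusted p under 0.05 by edgeR and DESeq2 also called 0. For the effect of viscoelasticity averaged over 2 and 20 kPa, 4 were called up and 2 down (background 40.0%, with 19.6% up and 20.4% down). The effect differed between 20 and 2 kPa in 2 genes, 1 with a higher and 1 with a lower value at 20 kPa (background 7.56%, with 4.45% higher and 3.12% lower). The share of histone genes called was thus near or below that of all genes in each comparison. Only 8 of the 22 averaged at least 100 counts, and the part of depth in this share was not tested. The comparisons share samples, so their calls are not independent. The median log2 fold change of the 22 genes was 0.22 at 2 kPa and -0.19 at 20 kPa, against 0.00 and 0.02 over all tested genes. At least 1 comparison called 8 of the 22 genes, and 14 were called in none. The share of all tested genes called in at least 1 comparison was not counted, and the averaged effect alone called 40.0% of them.

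**Figure D2:**
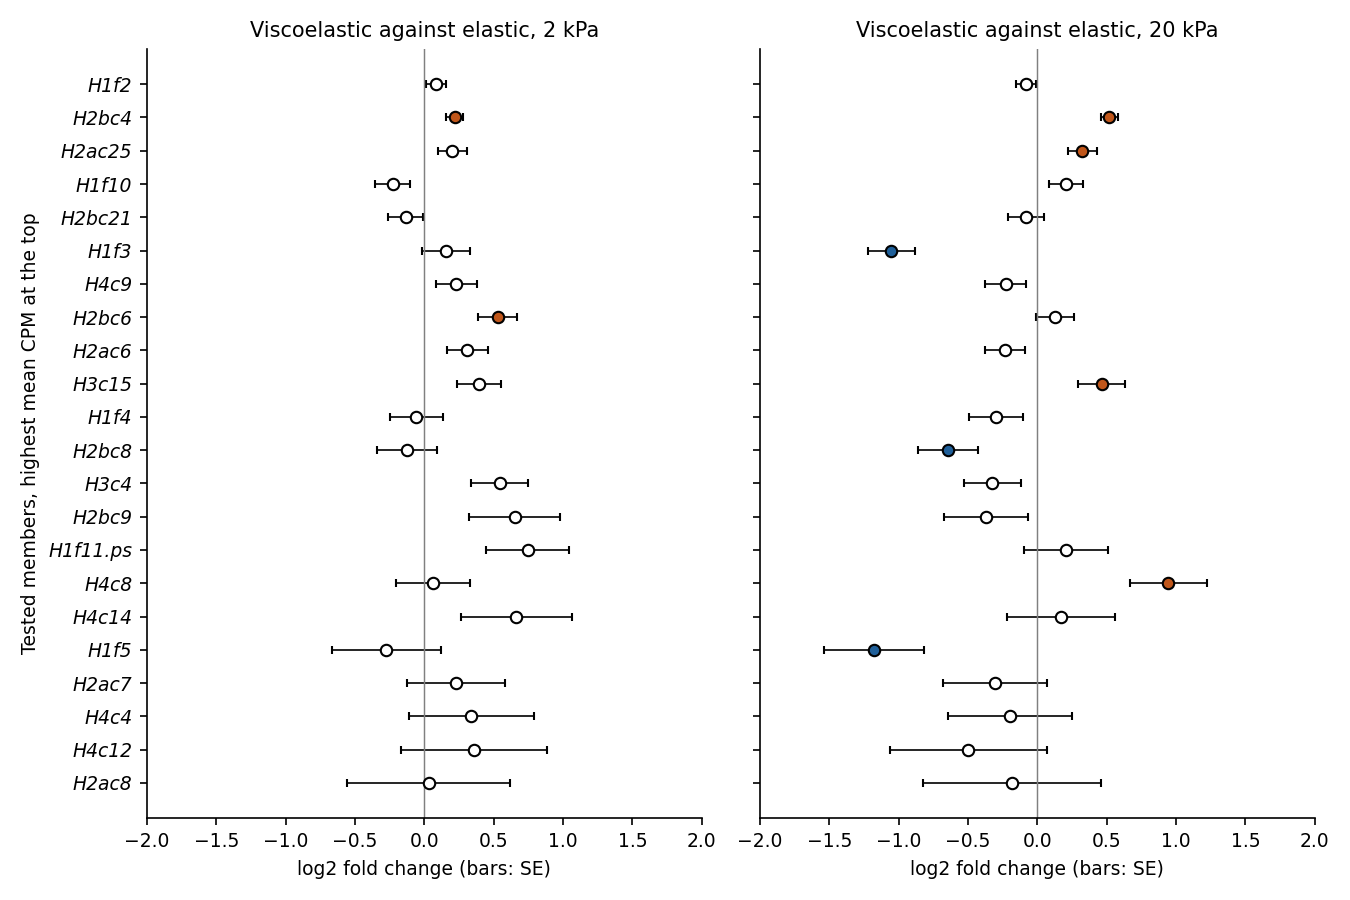
Log2 fold change of viscoelastic against elastic gels at 2 kPa (left) and 20 kPa (right) for the 22 tested histone genes, with bars of 1 SE; filled points were called (orange up, blue down), open points were not. H2bc4 and H2bc6 are filled at 2 kPa, and at 20 kPa H2bc4, H2ac25, H3c15 and H4c8 are filled to the right and H1f3, H1f5 and H2bc8 to the left.

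Linker histones bind DNA at its entry to and exit from the nucleosome. H1f2 (Hist1h1c, chr13:23738808-23740367), the most abundant histone gene in these libraries, lay between 82.1 and 104 CPM in all 12 samples. Its means were 88.7 ± 3.12 CPM on 2-kPa elastic, 91.4 ± 11.3 on 20-kPa elastic, 94.0 ± 4.15 on 2-kPa viscoelastic and 86.3 ± 1.33 on 20-kPa viscoelastic gels. Viscoelastic minus elastic came to 0.08 ± 0.07 (log2, SE) at 2 kPa and -0.08 ± 0.07 at 20 kPa, with adjusted p of 0.45 and 0.42.

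H1f3 (Hist1h1d, chr13:23553262-23560686), another linker histone of the cluster, showed the widest difference among the well-counted genes. On 20-kPa elastic gels its samples were at 4.86, 3.56 and 5.60 CPM, and on 20-kPa viscoelastic gels at 1.97, 2.43 and 2.36 CPM. On 2-kPa gels it was at 3.12, 3.38 and 2.33 CPM when elastic and at 3.18, 3.43 and 3.25 CPM when viscoelastic. All 3 samples on 20-kPa elastic gels were thus above the 9 others, and the 20-kPa viscoelastic samples overlapped only with the 2-kPa elastic ones. H1f3 fell by 1.05 (log2, SE 0.17, adjusted p = 0.000466) on viscoelastic gels at 20 kPa, 2.07-fold, and its value at 2 kPa was 0.15 ± 0.17 (adjusted p = 0.57). The difference between these effects was -1.20 ± 0.24 (adjusted p = 0.00777). With stiffness it rose on elastic gels by 0.66 ± 0.17 (adjusted p = 0.0175), a call lost without replicate 3 of the 2-kPa elastic group (0.52, adjusted p = 0.0760) or of the 20-kPa elastic group (0.51, adjusted p = 0.0950). On viscoelastic gels its value was -0.55 ± 0.18 (adjusted p = 0.11).

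H1f5 (Hist1h1b, chr13:21779883-21780625) had few counts, 26 to 32 per sample on 20-kPa elastic gels and 10 to 15 on 20-kPa viscoelastic gels. In CPM these were 0.700, 0.730 and 0.641 against 0.304, 0.235 and 0.376, without overlap. It fell by 1.18 (log2, SE 0.36, adjusted p = 0.0213) on viscoelastic gels at 20 kPa. That call was lost without replicate 2 of the 20-kPa elastic group (adjusted p = 0.0610) or replicate 1 (0.0554) or 2 (0.0808) of the 20-kPa viscoelastic group. At 2 kPa the value was -0.27 ± 0.39 (adjusted p = 0.67), and the difference between stiffnesses was not called (adjusted p = 0.35). H1f4 (Hist1h1e), at 1.68 ± 0.0576, 1.61 ± 0.335, 1.61 ± 0.245 and 1.31 ± 0.270 CPM in the order of the groups above, and H1f10, at 7.97 ± 1.41, 6.89 ± 0.546, 6.82 ± 0.599 and 7.96 ± 0.829 CPM, were called in no comparison, and neither was the pseudogene H1f11.ps, at 12 to 35 counts a sample.

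The region before the RefSeq start of H1f3 carries known elements of linker histone genes. It is shown because H1f3 changed most among the H1 genes with over 100 counts, with the letters of the H1 box (AAACACA), the CCAAT box (CCAAT) and the TATA box (TATAAA), on either strand, in capitals. The sequence is from RefSeq, GRCm38.p6, chr13:23554782-23555081, plus strand, 250 bases before to 50 after the RefSeq start. This stretch lies inside the GENCODE M21 model of H1f3, which begins further upstream, at chr13:23553262.
H1f3 promoter: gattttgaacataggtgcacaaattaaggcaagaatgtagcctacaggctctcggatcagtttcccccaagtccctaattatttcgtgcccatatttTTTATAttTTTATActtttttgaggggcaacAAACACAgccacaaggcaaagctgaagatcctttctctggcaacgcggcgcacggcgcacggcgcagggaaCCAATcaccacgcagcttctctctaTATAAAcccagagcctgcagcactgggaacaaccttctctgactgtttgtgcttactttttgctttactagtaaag

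In promoters of this length the H1 box letters were found in 4 of 6 H1 genes with a promoter in the table and in 7.14% of all 27025 promoters. H1f2, which was not called, also held the H1 box and 1 CCAAT box, and H1f5, which fell, held the H1 box, 3 CCAAT boxes and 1 TATA box.

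H2A and H2B form the dimers at the outside of the nucleosome, and many of their genes stand head to head. H2bc4 (Hist1h2bc, chr13:23684199-23692908, plus strand) was at 37.8, 35.8 and 36.1 CPM on 2-kPa elastic gels and at 43.7, 42.3 and 41.6 CPM on 2-kPa viscoelastic gels. At 20 kPa it was at 35.8, 32.4 and 31.98 CPM on elastic and at 46.0, 46.5 and 51.0 CPM on viscoelastic gels. Every viscoelastic sample was above every elastic sample. H2bc4 rose on viscoelastic gels by 0.22 ± 0.06 (log2, SE, adjusted p = 0.0202) at 2 kPa and by 0.52 ± 0.06 (adjusted p = 0.000103) at 20 kPa, 1.16-fold and 1.43-fold. The call at 2 kPa was lost without replicate 2 (adjusted p = 0.0774) or 3 (0.0556) of the elastic group or replicate 1 (0.0507) of the viscoelastic group at that stiffness. The effect differed between stiffnesses by 0.30 ± 0.09 (adjusted p = 0.0463). That call was lost under both other scalings, with every counted gene tested and with a term for the replicate number. It was also lost without any 1 of 11 of the 12 samples. Stiffness alone gave -0.13 ± 0.06 on elastic and 0.17 ± 0.06 on viscoelastic gels, neither called.

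**Figure D3:**
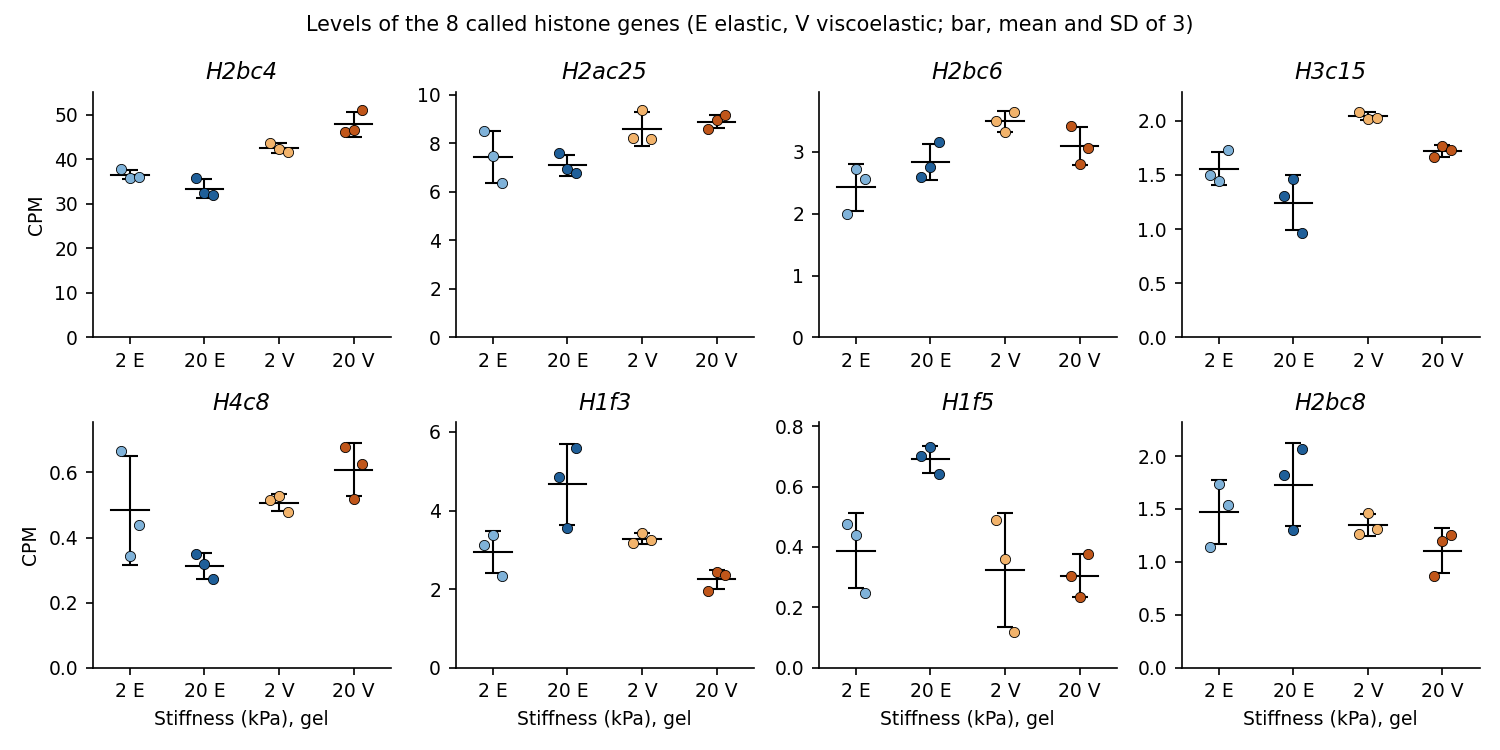
CPM of the 8 histone genes called in at least 1 comparison, with each sample as a point and the mean and SD of 3 as bars; E is elastic, V viscoelastic, stiffness in kPa, and each axis starts at 0. H2bc4 is higher in all 6 viscoelastic than in all 6 elastic samples, and H1f3 and H1f5 are highest in the 3 samples on 20-kPa elastic gels.

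H2bc4 shares its start region with H2ac6 (Hist1h2ac, chr13:23681467-23683948, minus strand), the starts lying 240 bases apart in RefSeq. H2ac6 was at 1.56 ± 0.146, 1.83 ± 0.130, 1.93 ± 0.0994 and 1.56 ± 0.148 CPM in the order of the groups above, and its viscoelastic values were 0.31 ± 0.15 (log2, SE, adjusted p = 0.15) at 2 kPa and -0.23 ± 0.15 (adjusted p = 0.24) at 20 kPa. At 20 kPa, the pair thus had values of 0.52 for H2bc4, which was called, and -0.23 for H2ac6, which was not. The difference between both genes was not tested. The stretch between them is printed as the promoter of H2ac6 on the minus strand, chr13:23683910-23684209 (RefSeq, GRCm38.p6), because 1 sequence serves as the upstream region of both, with the octamer (ATTTGCAT), CCAAT box and TATA box letters in capitals on either strand.
H2ac6 and H2bc4 shared region: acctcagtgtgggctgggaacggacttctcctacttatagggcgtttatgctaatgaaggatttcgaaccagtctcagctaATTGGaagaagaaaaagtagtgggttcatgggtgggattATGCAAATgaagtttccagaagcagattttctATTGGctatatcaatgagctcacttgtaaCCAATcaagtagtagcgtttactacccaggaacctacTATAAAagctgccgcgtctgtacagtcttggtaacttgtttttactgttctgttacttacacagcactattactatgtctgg

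Among 58 histone promoters in the table, 49 held the CCAAT letters (37.9% of all 27025 promoters), 34 the TATA letters (14.2%) and 12 the octamer letters (1.75%), all 12 of classes H2A and H2B. Promoters of head-to-head partners overlap, so the 58 are not independent sequences and the same letters can be counted for both partners. The shared region held the octamer once and CCAAT in 3 places. A second head-to-head pair with both genes tested was H2ac8 and H2bc8, of 11 pairs found, with 180 bases between starts. H2bc8 (Hist1h2bg, chr13:23571396-23572013) was at 1.82, 1.30 and 2.07 CPM on 20-kPa elastic and at 0.866, 1.20 and 1.25 CPM on 20-kPa viscoelastic gels and fell by 0.64 (log2, SE 0.22, adjusted p = 0.0330). The groups did not overlap, although the call was lost without any of 4 samples (adjusted p from 0.0540 to 0.147 without them). At 2 kPa it was at 1.14 to 1.74 CPM when elastic and at 1.26 to 1.46 CPM when viscoelastic. H2ac8, at 2 to 15 counts a sample, was not called, and its SE of 0.64 at 20 kPa leaves it undecided at this depth.

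Both H2bc6 and H2ac25 rose on viscoelastic gels in the mean over both stiffnesses, and each was called at one stiffness with no called difference between the stiffnesses. H2bc6 (Hist1h2be, chr13:23583670-23621124) was at 2.00, 2.72 and 2.55 CPM on 2-kPa elastic and at 3.51, 3.31 and 3.65 CPM on 2-kPa viscoelastic gels, and rose by 0.53 ± 0.14 (adjusted p = 0.0158). Without replicate 1 of the 2-kPa elastic group (0.40, adjusted p = 0.0889) or replicate 3 of the 2-kPa viscoelastic group (0.49, adjusted p = 0.0566) it was not called. At 20 kPa its value was 0.13 ± 0.14 (adjusted p = 0.51), the difference between stiffnesses was -0.40 ± 0.20 (adjusted p = 0.24), and the mean effect was 0.33 ± 0.10 (adjusted p = 0.0157). H2ac25, for which no gene model was matched, was at 7.59, 6.96 and 6.76 CPM on 20-kPa elastic and at 8.59, 8.95 and 9.15 CPM on 20-kPa viscoelastic gels. It rose by 0.32 ± 0.10 (adjusted p = 0.0254), which was lost without any of 4 samples of that stiffness (adjusted p from 0.0613 to 0.0913 without them). At 2 kPa its value was 0.20 ± 0.10 (adjusted p = 0.18), the difference between stiffnesses was 0.12 ± 0.15 (adjusted p = 0.68), and the mean effect was 0.26 ± 0.07 (adjusted p = 0.0101). H2bc21 (Hist2h2be, chr3:96221119-96223738), whose model is 1 exon of 2620 bases with the stop codon near its start, was at 3.63 ± 0.235, 3.24 ± 0.372, 3.30 ± 0.131 and 3.06 ± 0.381 CPM and was called nowhere. H2ac7, at 5 to 21 counts a sample, and H2bc9, at 12 to 41, were not called either.

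H3 and H4 form the tetramer at the nucleosome's core. H3c15 (Hist2h3c2, chr3:96238108-96239127) was at 1.50, 1.44 and 1.73 CPM on 2-kPa elastic and at 2.08, 2.02 and 2.03 CPM on 2-kPa viscoelastic gels, and at 1.31, 1.46 and 0.961 CPM on 20-kPa elastic and 1.66, 1.77 and 1.73 CPM on 20-kPa viscoelastic gels. The viscoelastic samples were above the elastic samples at each stiffness. It rose on viscoelastic gels by 0.46 ± 0.17 (adjusted p = 0.0432) at 20 kPa, and its value at 2 kPa was 0.39 ± 0.16 (adjusted p = 0.0957). The 20-kPa call was lost with DESeq2 (adjusted p = 0.0741) and with every counted gene tested (0.0812). It was also lost with a term for the replicate number (0.0645), with only the 6 samples compared (0.0715) and without any of 8 samples. Over both stiffnesses the mean effect was 0.43 ± 0.12 (adjusted p = 0.00848). With 37.4% of its stretches unique, reads of near-identical H3 genes may be counted here or lost.

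H4c8 (Hist1h4h, chr13:23531050-23531519), a gene whose model stops 46 bases after the stem-loop, was counted 11 to 15 times per sample on 20-kPa elastic and 22 to 29 times on 20-kPa viscoelastic gels. These were 0.350, 0.319 and 0.271 CPM against 0.679, 0.518 and 0.627 CPM, and it rose by 0.95 ± 0.28 (log2, SE, adjusted p = 0.0175). The call was lost without replicate 3 of the 20-kPa elastic (adjusted p = 0.0695) or replicate 1 of the 20-kPa viscoelastic group (0.0620). At 2 kPa its value was 0.06 ± 0.27. H4c9 (Hist1h4i), the most counted H4 gene, was at 2.71 ± 0.106, 3.56 ± 0.516, 3.18 ± 0.450 and 3.04 ± 0.360 CPM in the order of the groups above, and was not called in any comparison. The same held for H3c4 at 27 to 56 counts and for H4c14, H4c4 and H4c12, each at 40 counts or fewer in every sample.

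Genes that make and cut histone messages were examined next, in a list of 19 genes, all tested. At 20 kPa, 10 of the 19 were called between viscoelastic and elastic gels, 8 down and 2 up, against 33.5% of all tested genes, 16.1% down and 17.4% up, with a median log2 fold change of -0.16 against 0.02 over all genes. Npat, the coactivator that switches on histone genes in S phase, fell by 0.34 (adjusted p = 0.00419), being at 54.2, 56.4 and 57.8 CPM on elastic and at 47.3, 41.9 and 44.2 CPM on viscoelastic gels. Casp8ap2 (FLASH), which sits with Npat at the histone gene clusters, fell by 0.32 (adjusted p = 0.00783). Lsm11, a subunit of the U7 particle, fell by 0.36 (adjusted p = 0.00815, and 0.0505 without replicate 3 of the 20-kPa elastic group), while its partner Lsm10 had a value of 0.22 (adjusted p = 0.0693). The cleavage factor subunits Sympk and Cpsf2 fell by 0.21 and 0.25, and the nuclease Cpsf3 and the cap-binding Ncbp2 rose by 0.15 and 0.21. The Cpsf3 call was lost with DESeq2, DESeq2 size factors, every counted gene and the replicate block, and without any 1 of 10 of the 12 samples. Slbp, at 44.1 ± 1.88 CPM on 20-kPa elastic and 42.3 ± 1.87 on 20-kPa viscoelastic gels, and Zfp473, another factor of U7 processing, at 1.42 ± 0.0539 and 1.33 ± 0.334 CPM, were not called. At 2 kPa 3 of the 19 were called (1 up, 2 down), a share below the 19.9% of all tested genes. With stiffness 1 was called on elastic gels (Cpsf2, up by 0.22), below the 14.0% of all tested genes, and 0 on viscoelastic gels (background 2.28%). The Cpsf2 call with stiffness was lost without any of 4 samples (adjusted p from 0.0783 to 0.133 without them).

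Many replacement histones are made from polyadenylated messages outside S phase too, which was not checked here for each gene of the list, Cenpa and H2ax included. Of 11 listed genes tested, H1f10 among them, 4 were called at 20 kPa, 2 up and 2 down, a share near the 33.5% of all tested genes. At 2 kPa 0 were called, where 19.9% of all tested genes were called. Cenpa, the histone H3 form of centromeres, was at 41.2, 43.7 and 42.6 CPM on 20-kPa elastic and at 31.4, 25.2 and 30.3 CPM on 20-kPa viscoelastic gels. It fell by 0.55 (adjusted p = 0.000137) on viscoelastic gels at 20 kPa and rose with stiffness on elastic gels by 0.38 (adjusted p = 0.00266). H2az1 fell by 0.25 (adjusted p = 0.0211) at 20 kPa, a call lost without either of 2 samples (adjusted p of 0.0857 and 0.0919), and its paralog H2az2 rose by 0.29 (adjusted p = 0.00281). Macroh2a2 rose by 0.19 (adjusted p = 0.0485), a call lost with DESeq2, DESeq2 size factors, every counted gene and the replicate block, and without any of 7 samples. H2ax was called only for the mean effect over both stiffnesses.

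Histone chaperones carry histones to DNA. Of 19 tested, 9 were called at 20 kPa (8 down, 1 up), where 33.5% of all tested genes were called, 16.1% down, and 7 at 2 kPa, all down, where 19.9% were called, 11.1% down. Hjurp, which loads Cenpa, fell by 0.58 (adjusted p = 7.50e-05) at 20 kPa and by 0.26 (adjusted p = 0.00847) at 2 kPa. The FACT subunits Ssrp1 and Supt16 fell by 0.20 and 0.31 at 20 kPa, and Anp32e, a chaperone of H2A.Z, by 0.19. The Ssrp1 call was lost without either of 2 samples (adjusted p of 0.0540 and 0.0554), and the Anp32e call without any of 4 (adjusted p from 0.0525 to 0.0814). Nap1l1 rose with stiffness on elastic gels by 0.30 (adjusted p = 0.00466).

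Genes of DNA replication and S phase entry were read in the same libraries. Of 26 tested, 22 fell on viscoelastic gels at 20 kPa and 12 at 2 kPa, none rising, and 19 rose with stiffness on elastic gels, against 16.1% and 11.1% of all tested genes down and 6.81% up in these comparisons. Their median log2 fold change was -0.49 at 20 kPa and -0.26 at 2 kPa, and their summed level was 1223 ± 40.3, 1548 ± 100.3, 1009 ± 46.6 and 1088 ± 110.3 CPM in the order of the groups above. Rrm1, a subunit of ribonucleotide reductase, fell by 0.65 (adjusted p = 0.000124) at 20 kPa, the helicase subunits Mcm6 and Mcm4 by 0.53 and 0.48, and Ccna2, cyclin A, by 0.59, while the clamp Pcna had a value of -0.20 (adjusted p = 0.0511, called with DESeq2 at 0.0327). H1f3, H1f5 and H2bc8 fell at 20 kPa together with these genes, and H2bc4, H2ac25, H3c15 and H4c8 rose there. The 22 tested histone genes thus gave calls in both directions at 20 kPa where the S phase genes called had 1 direction. The paper's EdU labelling, given above, showed no fall in proliferation on viscoelastic gels at 2 or 20 kPa. The part of S phase in the histone gene values was not tested.

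**Figure D4:**
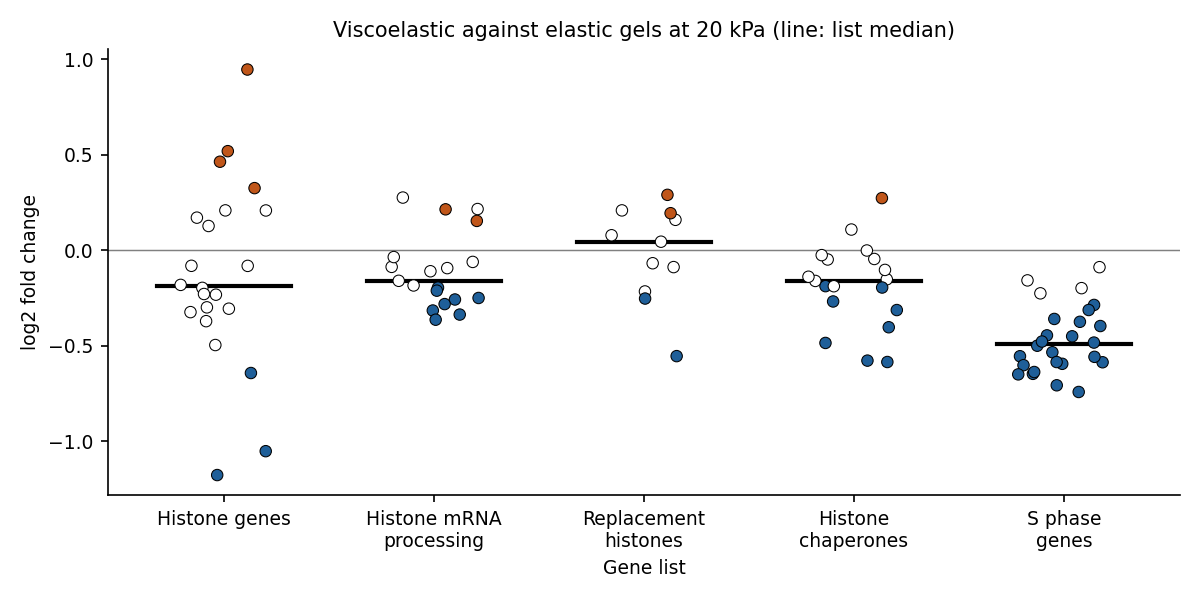
Log2 fold change of viscoelastic against elastic gels at 20 kPa, each point a tested gene, for the histone genes and 4 lists; filled points were called (orange up, blue down), open points were not, and the line is the list's median. The histone genes spread from -1.18 to 0.95 with calls on both sides of 0, and the S phase genes lie below 0 with a median of -0.49.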

How the data were processed

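Per the labels and the study's methods, Trimmomatic, STAR (build mm10) and featureCounts (GENCODE genes, release not stated) gave the raw counts of reads per gene that the authors deposited, in 1 table of 12 samples and without normalization. Strandedness, read length and the handling of reads with several locations are not given in the sources used here. The other assays of the study were not analysed here.

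The test was edgeR's quasi-likelihood test (edgeR 4.0.16, R 4.3.3, glmQLFit and glmQLFTest, TMM, filterByExpr with a minimum of 10 counts, 1 coefficient per group, all 12 samples), with Benjamini-Hochberg adjustment over the 14542 genes kept and a threshold of 0.05. Alternatives were DESeq2 1.42.0, other scalings, no filter, a term for the replicate number, only the 6 samples compared and each sample left out. The scripts were checked on simulated data. Group values are mean ± SD of CPM, and log2 fold changes carry the SE of the fit. Replicates of one group differed more than counting alone, with a mean chi-squared of 11.2 to 55.5 per gene.

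Gene models came from GENCODE M21 and promoters from RefSeq GRCm38.p6, matched by older symbols, so they may differ from the models counted. H2ac25, H2bc24, H2bc27, H4c16 and H2ac5.ps could not be matched to a model by symbol, which does not show that the annotation lacks them. A model was called extended when it ran over 100 bases past the stem-loop. Histone genes and lists were chosen with earlier results of these data known, and no test was made over a list. Named were every called histone gene, the 12 with the highest mean CPM, tested H1 genes and head-to-head partners, and for each list up to 6 called genes by mean CPM plus Slbp, Npat, Casp8ap2, Lsm10, Lsm11 and Zfp473. Mcm7 was named after its values were seen. The extension kinds and sums below the filter were formed after the data were seen.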

Additional observations from a re-analysis of the deposited data

Results flagged for a closer look

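The effect of viscoelasticity differed between 20 and 2 kPa, by the edgeR test of the difference itself, in 2 of 22 histone genes (9.09%). It differed in 1 of 11 replacement histones, 1 of 19 chaperones, 1 of 26 S phase genes and 0 of 19 processing genes. Of all tested genes 7.56% were called, a share near that of the histone genes. The cause was not tested. For H1f3 the viscoelastic effect at 20 kPa minus that at 2 kPa was -1.20 on the log2 scale (SE 0.24, adjusted p = 0.00777), and it was called without each of the 12 samples in turn. For H2bc4 it was 0.30 (SE 0.09, adjusted p = 0.0463), and without single samples it ran from 0.25 to 0.33 and was called in 1 of 12 cases. The centromeric histone gene Cenpa gave -0.38 (adjusted p = 0.0346), its loading factor Hjurp -0.32 (adjusted p = 0.0376) and the helicase subunit gene Mcm7 -0.32 (adjusted p = 0.0483). Without single samples these calls were kept in 4 of 12 cases for Cenpa (values from -0.44 to -0.29), 3 of 12 for Hjurp (-0.40 to -0.27) and 4 of 12 for Mcm7 (-0.39 to -0.26). With the replicate block, the calls of H2bc4 (adjusted p = 0.0689), Hjurp (adjusted p = 0.0625) and Mcm7 (adjusted p = 0.0552) were lost. In H1f3, Cenpa and Mcm7 the effect at 2 kPa was not called, and in H2bc4 and Hjurp it had the same direction at both stiffnesses and was called at both.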

How the results depend on the processing

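Low counts limited most members: 48 of 70 could not be tested, and 14 of the 22 tested averaged under 100 counts. The parts of depth, shared sequence and missing poly(A) tails in these low counts were not tested. The number of histone genes called stayed within 1.5 times its main value under the other scalings, DESeq2, no filter, the replicate block and the 6 samples compared, with these exceptions: with every counted gene tested, 1 was called between 20 and 2 kPa on viscoelastic gels (H1f3, -0.55) in place of 0, and the interaction called 1 in place of 2 under DESeq2 size factors, total counts, every counted gene and the replicate block. With every counted gene tested, 7 were also called at 20 kPa, of which H2ac10, at 0 to 4 counts a sample, stood in place of H3c15. Without single samples, the number called ran from 1 to 3 at 2 kPa, 3 to 7 at 20 kPa, 0 to 2 with stiffness on elastic gels, 5 to 7 for the mean effect and 1 to 2 for the interaction. The summed CPM of all members stayed within 1 SD of its main differences in each alternative. Without single samples, its difference between 20 and 2 kPa on elastic gels ran from -6.51 to 7.86 CPM, changing sign. On viscoelastic gels that difference ran from -6.29 to -2.48 CPM. Viscoelastic minus elastic ran from 1.58 to 15.9 CPM at 20 kPa and from 11.5 to 17.4 CPM at 2 kPa.

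Among the lists, DESeq2 called 2 histone processing genes in place of 1 with stiffness on elastic gels and 1 chaperone in place of 0 on viscoelastic gels. With the replicate block, 1 replacement histone in place of 0 was called at 2 kPa and 3 chaperones in place of 6 with stiffness on elastic gels. Same-numbered samples correlated from -0.20 to 0.31 in their deviations from the group means, and in no pair of groups were all 3 above 0.1. They were at 0.18, 0.31 and 0.05 between 2-kPa and 20-kPa viscoelastic gels, where differently numbered samples ran from -0.24 to 0.08. Whether the replicate numbers pair the samples was not tested. Values that were not called changed sign without 1 sample, with ranges of -0.153 to 0.00398 for H1f2, -0.157 to 0.0161 for H2bc21 and -0.317 to 0.0330 for Zfp473 at 20 kPa, and of -0.189 to 0.0183 for H1f4, -0.707 to 0.118 for H1f5, -0.286 to 0.0138 for H2bc8 and -0.140 to 0.378 for H4c8 at 2 kPa. Scaling by total counts alone moved the share of calls that were up, over all genes, from 44.1% to 57.1% at 2 kPa and from 48.9% to 60.5% for the mean effect, and left the directions of the histone genes called as they were. The cause of these differences was not tested.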
